A study of Rattus norvegicus with 78 samples.

Results

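The genes described here are 45 hippocampus-enriched genes of 14217 genes measured by a probeset (the set of oligonucleotides on an array that reads 1 transcript) with 1 gene symbol. A gene was taken where a probeset had a mean intensity above 100 over the hippocampus (HIP) arrays and a mean log2 intensity at least 1.3 above that of the prefrontal/frontal cortex (P/FC), a 2.46-fold difference, in arrays of each rat line. Where several probesets of a gene passed, the brightest was used, and Nr3c2 and Ttr were left out by the rule. The genes were thus selected on the measured difference between the regions, which is given as a description without a test. A difference between the lines within a region was not part of the rule. The threshold had to be passed in each line, however, which limits how far the region difference can vary between the lines.

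RNA of adult male rats was measured on Affymetrix rat arrays, 39 for each region. The study took both regions from the same animals, but the labels do not link their arrays. The Flinders Sensitive Line (FSL) shows behaviour used to model depression, and the Flinders Resistant Line (FRL) served as its control, both bred at the Karolinska Institute. Each region held 12 FRL and 9 FSL arrays in cohort 1 and 10 FRL and 8 FSL arrays in cohort 2, which was collected 6 months later. All rats had gone through a forced swim test and a week of rest, the sources name no agent, and P/FC was the whole frontal lobe, so that both lines share this history and both regions are mixtures of cell types.

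The hippocampus is a chain of subfields with different principal neurons. Granule cells of the dentate gyrus project to CA3 pyramidal cells, these to CA1, and CA1 to the subiculum, and each subfield carries its own transcription factors, receptors and adhesion molecules. The neocortex of the frontal lobe holds other excitatory neurons. In bulk tissue fewer cells of a type and less RNA per cell cannot be told apart.

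Prox1, the homeobox transcription factor that defines dentate granule cells, was among the 45 genes. Its intensity over the 39 HIP arrays ranged from 338 to 510.9 with a median of 410.2, and over the 39 P/FC arrays from 100.9 to 146.6 with a median of 117.4. No P/FC array reached the lowest HIP array, and the mean difference of Prox1 was 1.78 on the log2 scale (3.44-fold). A second Prox1 probeset was dim in both regions, with a mean of 20.7 in HIP and 21.8 in P/FC. The direction of the bright probeset was set by the rule that chose the gene, so it is no check of the tissue label. The dim probeset was below the level of 30 used for the filter.

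The region difference of the 45 genes ranged from 1.33 to 4.28 on the log2 scale with a median of 1.67 (3.19-fold), and 12 genes lay above 2. For 33 of the 45 genes the dimmest HIP array was brighter than the brightest P/FC array, and for 39 this held within each cohort, beside 0.725% and 0.954% of all 31042 probesets, a count that the choice of the genes by this difference sets. Mean HIP intensity ranged from 100.4 for Nhlh1 to 1484 for Nrip3. B3galt5, Nrip3 and Ntng1 lay just inside the threshold, with 1.303, 1.304 and 1.316 in the line with the smaller difference. Lrrc10b, Cpne6 and Tnfaip8l3 lay just outside, with 1.296, 1.255 and 1.253 there. Samples of each region were processed apart, so region and processing cannot be told apart.

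**Figure D1:**
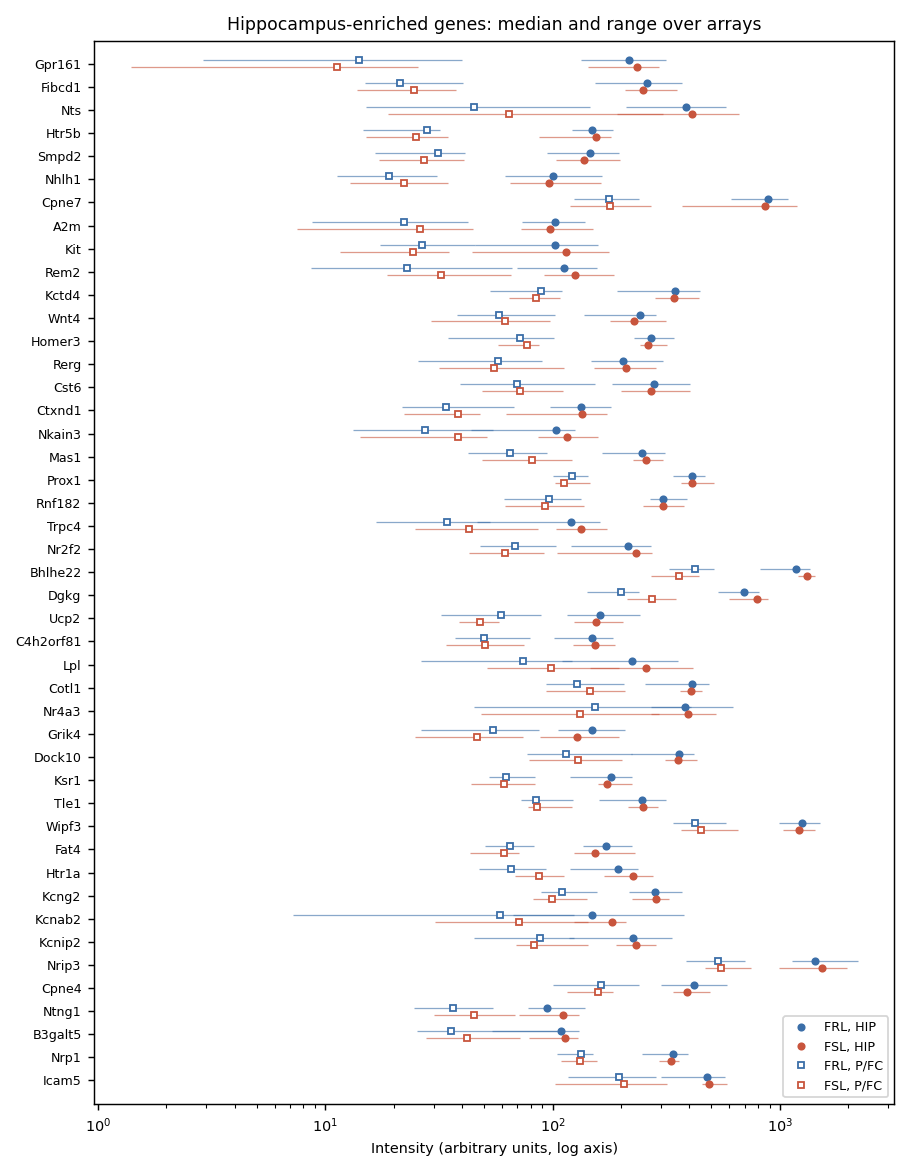
Intensity on a log axis for the 45 hippocampus-enriched genes, ordered by their region difference. Filled circles are HIP medians, open squares are P/FC medians, lines run from the lowest to the highest array, and colours give the line (22 FRL and 17 FSL arrays a region). Gpr161 at the top has P/FC medians of 14.0 in FRL and 11.2 in FSL arrays and HIP medians of 216 and 236.3, whereas the ranges of Lpl and Nts in the regions overlap.

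The 2 genes with the largest difference are both in the list of CA1 pyramidal cell markers. Gpr161 encodes an orphan receptor of the primary cilium, and its intensity ran from 133.3 to 316 in HIP with a median of 219.9, against 1.39 to 39.9 in P/FC with a median of 12.7. The difference was 4.28 on the log2 scale (19.4-fold), although values as low as those of P/FC are near background. A second Gpr161 probeset had a smaller difference of 1.69, with means of 162.8 in HIP and 50.2 in P/FC. Fibcd1, a membrane receptor that binds acetylated groups, had a mean of 257.8 ± 40.7 (SD, n = 39) in HIP and 24.2 ± 6.44 in P/FC, a difference of 3.44.

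Nts, which encodes the neuropeptide neurotensin and is in the subiculum list, followed with 2.70. Its P/FC arrays ran from 15.03 to 305.7, so the highest passed the lowest HIP array at 192.6. The other genes of the leading 10 were the serotonin receptor Htr5b with 2.57, the sphingomyelinase Smpd2 with 2.32, the basic helix-loop-helix factor Nhlh1 with 2.29, the calcium-dependent membrane-binding copine Cpne7 with 2.24, the protease inhibitor A2m with 2.15, the receptor tyrosine kinase Kit with 2.13 and the Ras-like GTPase Rem2 with 2.02. Of these 10 genes Nts and Cpne7 had P/FC means of 78.5 and 183.4, and the others lay between 13.7 for Gpr161 and 31.7 for Rem2. Apart from Nts and Cpne7, these 10 genes did not pass the filter on low values in P/FC, where they are near background, so the size and order of their differences are those of the values as deposited and not a measured ranking. Htr5b is in the list of habenula markers, and habenula is not part of the dissected region by its label. Of the 5 genes of that list on the array 3 were brighter in HIP. Without Htr5b the list summed to group means of 129.6 to 142.9 in HIP and 161.2 to 176.7 in P/FC. A part of habenula in the Htr5b difference was not tested.

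Dock10, an exchange factor for small GTPases and the other dentate gene among the 45, had a difference of 1.54. CA3 was represented by Grik4, a kainate receptor subunit, with 1.54, Rnf182, a ubiquitin ligase, with 1.73, and the copine Cpne4 with 1.37. The other subfield lists were CA2, with 0 of 13 genes on the array, mossy cells, with 0 of 11, and Cajal-Retzius cells, with 0 of 4. A subfield marker was not always brighter in HIP than in the frontal lobe, and the lists differed in this. Brighter in HIP were 11 of 21 dentate, 11 of 16 CA3, 12 of 14 CA1 and 8 of 13 CA2 genes on the array. For the subiculum it was 4 of 8, for mossy cells 2 of 11 and for Cajal-Retzius cells 2 of 4. Of the dentate genes the calcium-binding protein Calb1 had a difference of -0.21 and the neuropeptide precursor Pdyn one of -0.01.

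By function, 8 of the 45 genes encode receptors, among them Htr1a, the inhibitory serotonin receptor 1A, Mas1, a receptor for an angiotensin fragment, and Nrp1, a coreceptor for semaphorins, with differences of 1.43, 1.78 and 1.35. Another 6 regulate transcription (Prox1, Nhlh1, Bhlhe22, Nr2f2, Nr4a3 and Tle1), and of these Bhlhe22, a helix-loop-helix repressor, had a difference of 1.67. Another 6 are ion channel subunits or partners of channels and pumps, including the cation channel Trpc4 and the potassium channel proteins Kcng2, Kcnab2 and Kcnip2, with 1.70, 1.41, 1.41 and 1.39. Secreted proteins numbered 5, with the ligand Wnt4 at 2.01 and the lipoprotein lipase Lpl at 1.57. Signalling proteins numbered 7, with the diacylglycerol kinase Dgkg at 1.65, and adhesion or cytoskeletal proteins 5, with the protocadherin Fat4 at 1.43. The remaining 8 include the mitochondrial carrier Ucp2 at 1.58. Nr4a3, an orphan nuclear receptor induced by neuronal activity, was the member among the 13 immediate early genes, of which 1 was brighter in HIP.

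Of the 45 genes 18 had further probesets, 26 in all, and 22 of these 26 were also brighter in HIP. Further probesets of Gpr161, Kctd4, Rnf182, Dgkg and Nrp1 passed the rule themselves, which sets their direction. The share of all probesets brighter in HIP was not computed, so the count is a description. For Kcnab2, a beta subunit, the probeset with the highest mean had a difference of 0.85, and for Kcnip2 it was 0.94, under the threshold. Taking the brightest probeset of each gene before the threshold left 41 genes, without these 2, Icam5 and Ksr1.

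An array of the FRL HIP cohort 2 group, replicate 2, stood apart from the rest in these genes. It was the lowest of its group for 35 of the 45 genes, and its median deviation from the group median was -0.51 on the log2 scale, against -0.12 to 0.16 on the other 38 HIP arrays. On the same array 62 genes enriched in P/FC by the rule turned round had a median deviation of 0.51, where the other HIP arrays ran from -0.34 to 0.31. Its choroid plexus markers summed to 5443, above the 2761 that 31 HIP arrays did not exceed. On it 36 of the 45 genes were still above the highest P/FC array, as Gpr161 at 133.3 against 39.9, and 9 were not, as Trpc4 at 46.4 against 86.6. The line differences and correlations of named genes in HIP are therefore given with and without it.

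**Figure D2:**
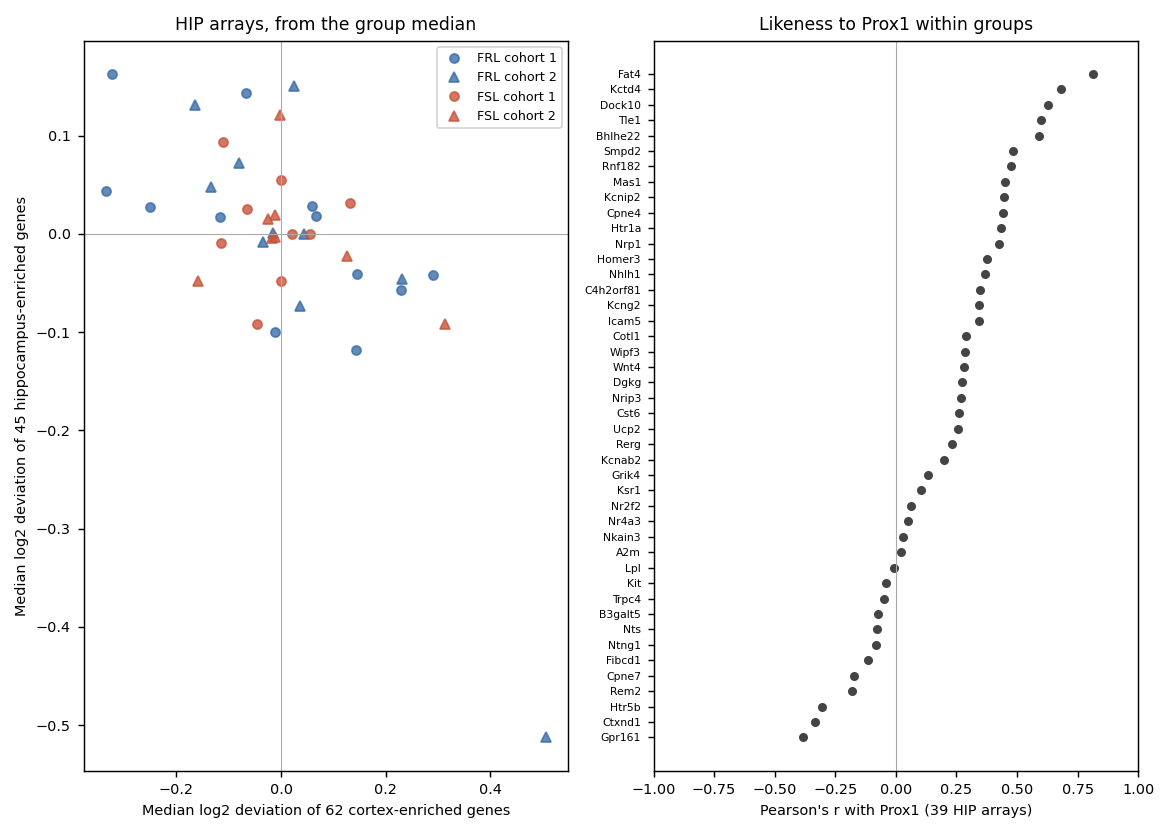
Left, each HIP array by the median log2 deviation of 62 cortex-enriched genes (horizontal) and of 45 hippocampus-enriched genes (vertical) from the medians of its group. Right, Pearson's r of each gene with Prox1 over 39 HIP arrays after group means were removed. An FRL cohort 2 array lies alone at 0.51 and -0.51, and r runs from 0.81 for Fat4 to -0.38 for Gpr161.

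In HIP the line difference of the probeset chosen for each gene was at most 0.28 in size on the log2 scale. All 45 genes passed the filter on low values, 3 were higher in FSL rats and 0 lower at an adjusted p under 0.05 (limma, Benjamini-Hochberg over 21630 probesets), which is 6.67% of the 45 genes beside 7.33% of all tested probesets (3.2% higher and 4.13% lower) and 10.6% of those with a HIP mean above 100. At an unadjusted p under 0.05 there were 7 of 45, beside 21.1% of all tested probesets. The median difference of the 45 genes was 0.03 on the log2 scale beside 0.00 over all tested probesets, and 32 genes lay within 0.1 of 0. The median size of the difference, whatever its sign, was 0.070 for the 45 genes and 0.059 over all tested probesets. By that measure the genes were not closer to 0 than the array. Without 8 HIP arrays rich in choroid plexus markers (6 FRL and 2 FSL) 0 genes were higher and Fat4 was lower with -0.25, adjusted p = 0.000662, and without the array that stood apart 3 were higher and 0 lower. Prox1 itself differed by 0.04 ± 0.04 (SE), adjusted p = 0.681, and by 0.03, adjusted p = 0.765, without the array that stood apart. The 62 cortex-enriched genes gave 1 higher and 2 lower of 55 tested in HIP.

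In P/FC 36 of the 45 genes passed the filter. Gpr161, Fibcd1, Htr5b, Smpd2, Nhlh1, A2m, Kit, Rem2 and Nkain3 did not and were not tested there. Of the 36 genes 5 were higher and 1 lower in FSL rats, which is 16.7% beside 18.6% of all 22370 tested probesets (9.76% higher and 8.86% lower) and 27.1% of those with a HIP mean above 100, and 10 of 36 had an unadjusted p under 0.05, beside 31.8% of all. The median difference was 0.06 beside 0.00. Bhlhe22, Dgkg and Htr1a passed in both regions, 3 of 36 genes beside 5.49% of the probesets tested in both. The cortex-enriched genes gave 6 higher and 10 lower of 62.

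**Figure D3:**
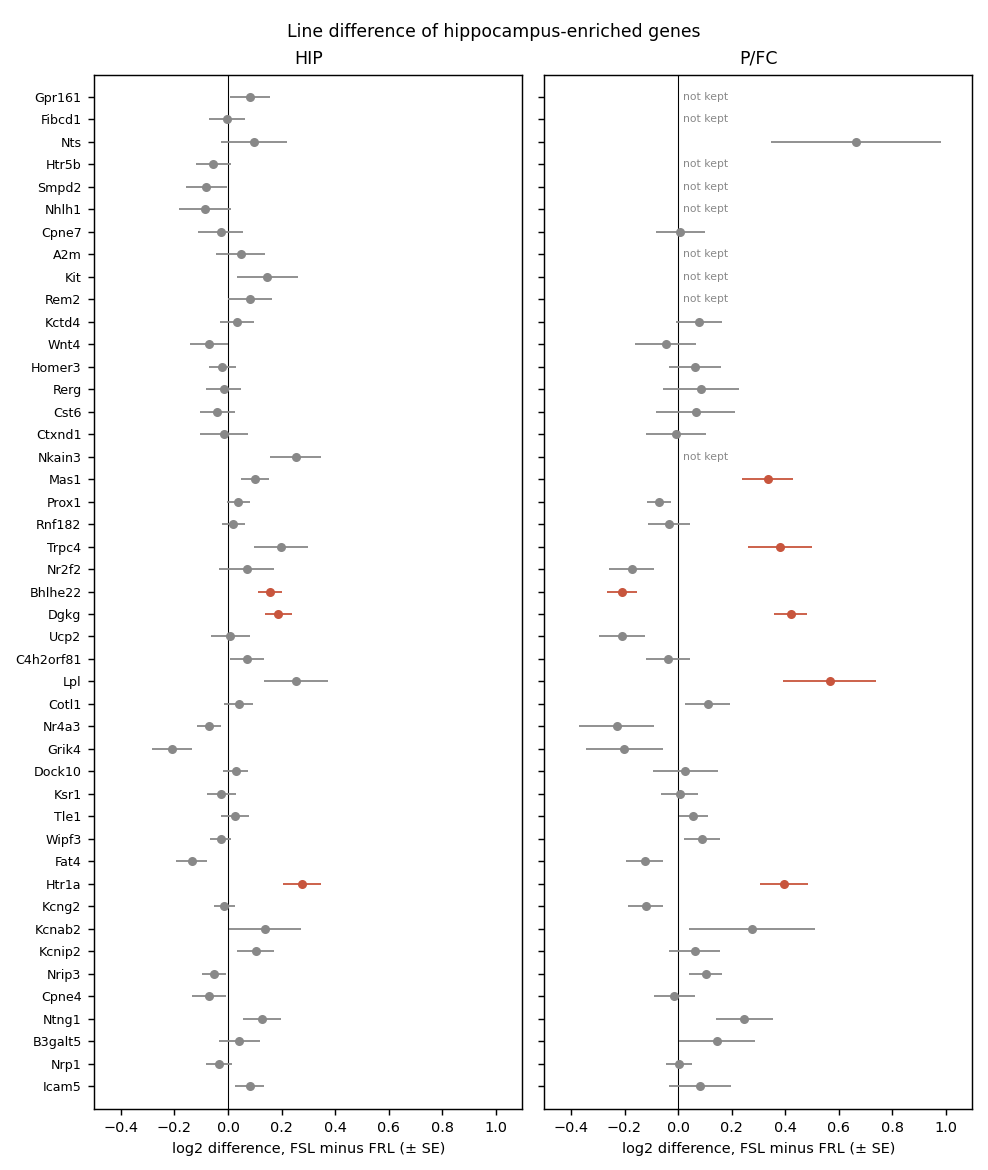
Difference between the lines on the log2 scale (FSL minus FRL, average of the cohorts, bars are SE) for the 45 genes in HIP and P/FC, in the order of their region difference. Red marks an adjusted p under 0.05, grey all others, and genes not kept by the filter have no point. In HIP 3 genes are red and in P/FC 6, with Bhlhe22 on opposite sides of 0.

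Bhlhe22 was the gene whose line difference turned with the region. In HIP FRL arrays ran from 814.2 to 1361 with a median of 1176, and FSL arrays from 1198 to 1421 with a median of 1312. In P/FC FRL arrays ran from 324.8 to 515 with a median of 425.2, and FSL arrays from 271.6 to 441 with a median of 358.5. The groups overlapped in each region, with FSL the higher in HIP and the lower in P/FC.

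The Bhlhe22 difference was 0.16 ± 0.04 (SE) in HIP, adjusted p = 0.0221, and -0.21 ± 0.06 in P/FC, adjusted p = 0.00687 (limma). It had the same sign in the cohorts of each region, with 0.12 and 0.19 in HIP and -0.24 and -0.17 in P/FC. The difference between the regions was 0.37 ± 0.07, adjusted p = 0.0050, and Bhlhe22 was the only one of 36 genes tested for it to pass, where 0.0668% of 20963 probesets did (0.0716% with the replicate number as a block). The region difference of Bhlhe22 was 1.49 in FRL and 1.85 in FSL arrays, and both lines had to pass 1.3 for the gene to be chosen, which limits such a difference near the threshold. Without the HIP array that stood apart it was 0.34, adjusted p = 0.0062, and the HIP difference alone was 0.13, adjusted p = 0.0203. Bhlhe22 is read by 1 probeset, so no second one bears on it. The fit of the difference between the regions treated all arrays as independent, although both regions came from the same animals.

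Markers of neighbouring tissue moved with this result. Over 39 P/FC arrays the residuals of Bhlhe22 had r = -0.63 (rho = -0.62, and r = -0.58 without the 2 arrays farthest in that score) with a summed score of striatal markers, and the mean striatal sum in cohort 1 was 5901 in FSL and 3872 in FRL arrays. In cohort 2, where the sums were 4775 and 4766, the difference of Bhlhe22 in P/FC was -0.17. With tissue scores as covariates it was -0.17, adjusted p = 0.013. Without 14 P/FC arrays with a striatal sum above 5000 it was -0.18, adjusted p = 0.065, without 8 HIP arrays whose choroid plexus markers summed to more than 5000 (choroid-rich) it was 0.09 in HIP, adjusted p = 0.221, and with both sets left out the difference between the regions was 0.27, adjusted p = 0.149.

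Htr1a, which couples serotonin to inhibition in pyramidal cells, was higher in FSL rats in both regions on the 1 probeset read here. In HIP FRL arrays ran from 119 to 238 with a median of 193, and FSL arrays from 169.2 to 276.5 with a median of 225.2. In P/FC the ranges were 47.4 to 93.4 with a median of 65.4 and 68.3 to 112.7 with a median of 87.0. The ranges overlapped in each region. The difference was 0.28 ± 0.07 in HIP, adjusted p = 0.0100, and 0.40 ± 0.09 in P/FC, adjusted p = 0.00185 (limma), and each cohort had the same sign. Without the array that stood apart the HIP value was 0.25, adjusted p = 0.0149, and without the choroid-rich arrays 0.17, adjusted p = 0.200. With the Actb 3' to 5' ratio, a sign of RNA quality, as a covariate it was 0.14, adjusted p = 0.55, in HIP, and with the Gapdh ratio 0.19, adjusted p = 0.238, in P/FC. Over 39 arrays the residuals of Htr1a had r = -0.60 (rho = -0.60, and r = -0.57 without 2 arrays) with the Gapdh ratio in P/FC and r = -0.42 (rho = -0.43, and r = -0.30) with the Actb ratio in HIP. Htr1a was read by the 1 probeset that carries its symbol in the platform annotation used here. Probesets without a symbol there were not assigned to it. The study lists further Htr1a probesets, which were higher in FSL rats in P/FC. In HIP their differences were smaller than that of the probeset read here, with no change in cohort 1. The study's real-time PCR found Htr1a higher in FSL rats in P/FC in each cohort, and in HIP it did not reach significance.

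Dgkg, a kinase that removes the second messenger diacylglycerol, had the smallest adjusted p among the probesets chosen for the 45 genes. In P/FC FRL arrays ran from 141.9 to 240.6 with a median of 200.8 and FSL arrays from 211.7 to 349.8 with a median of 273.1. In HIP the ranges were 534.6 to 805.1 and 594.1 to 888.2, with medians of 696.5 and 789.5. FSL rats were the higher in both regions, and the ranges overlapped. The difference of Dgkg was 0.42 ± 0.06 in P/FC, adjusted p = 1.08e-05, and 0.19 ± 0.05 in HIP, adjusted p = 0.0127 (limma). It was 0.57 in cohort 1 and 0.27 in cohort 2 in P/FC. The line by region difference of Dgkg (HIP minus P/FC) was -0.23 ± 0.08, unadjusted p = 0.00502 and adjusted p = 0.426 (limma). In HIP Dgkg was 0.17, adjusted p = 0.0181, without the array that stood apart, but it passed in 9 of 13 alternatives, not with averaged probesets (0.08, adjusted p = 0.320), the Gapdh ratio (0.15, adjusted p = 0.0627), the Actb ratio (0.15, adjusted p = 0.293) or without the choroid-rich arrays (0.16, adjusted p = 0.0752). A second bright Dgkg probeset differed by 0.36, adjusted p = 0.000124, in P/FC and by 0.11, adjusted p = 0.276, in HIP, and the remaining, dim probeset by -0.21, adjusted p = 0.145, in P/FC.

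The other genes higher in FSL rats in P/FC were Mas1, Trpc4 and Lpl. Mas1 ran from 42.5 to 94.1 in FRL and from 49.0 to 121.6 in FSL arrays, a difference of 0.33 ± 0.09, adjusted p = 0.0109. Trpc4 ran from 16.8 to 53.1 in FRL and from 24.8 to 86.6 in FSL arrays, a difference of 0.38 ± 0.12, adjusted p = 0.0216. Lpl, which frees fatty acids from lipoproteins, ran from 26.3 to 121.4 in FRL and from 51.4 to 196.4 in FSL arrays, a difference of 0.57 ± 0.17, adjusted p = 0.0194 (limma), which was 0.56, adjusted p = 0.077, with the replicate number as a block. In HIP the values were 0.10 for Mas1, 0.20 for Trpc4 and 0.25 for Lpl, with adjusted p = 0.262, 0.261 and 0.203. Without the array that stood apart they were 0.07, 0.13 and 0.21. None of the 3 passed the test of the line by region difference, with adjusted p = 0.59, 0.82 and 0.75 (limma). Mas1 had -0.23 ± 0.11 (HIP minus P/FC) with an unadjusted p of 0.0355. The choice of genes by the region difference in each line limits this test. Lpl had 0.96 in cohort 1 and 0.18 in cohort 2, and Trpc4 0.57 and 0.19, and the difference between the cohorts did not pass for either, with adjusted p = 0.998.

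**Figure D4:**
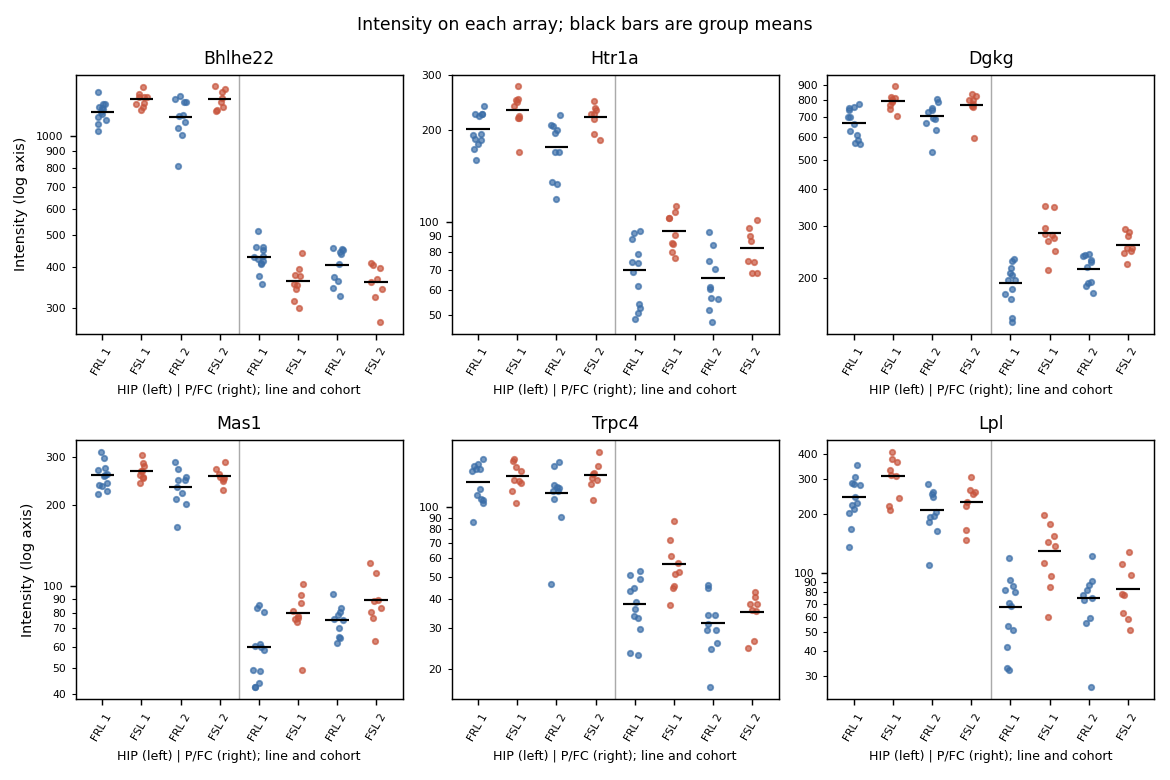
Intensity of each array on a log axis for the 6 genes with an adjusted p under 0.05 in either region, by line and cohort, HIP at left and P/FC at right of the grey line. Black bars are group means. FSL means of Bhlhe22 lie above FRL means in HIP and below them in P/FC, whereas those of Dgkg and Htr1a lie above in both.

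Striatal markers moved with some of these genes in P/FC. The residuals of Lpl had r = 0.69 with the striatal score over 39 arrays, those of Trpc4 0.37, Mas1 -0.15, Htr1a 0.04 and Dgkg 0.14. With tissue scores as covariates Lpl was 0.29, adjusted p = 0.131, and Trpc4 0.28, adjusted p = 0.114, whereas Dgkg was 0.39, adjusted p = 0.000155, Htr1a 0.38, adjusted p = 0.0087, and Mas1 0.34, adjusted p = 0.021. Without the striatum-rich arrays Dgkg (0.40) and Htr1a (0.41) stayed past the threshold, with adjusted p = 0.00667 and 0.0353, and Mas1 (0.32), Trpc4 (0.29) and Lpl (0.28) did not.

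A ratio of 3' to 5' probesets of control transcripts, read as a sign of RNA quality, also moved with the line. The log2 ratio of Gapdh in P/FC averaged 0.735 in FSL and 0.834 in FRL arrays of cohort 1, and 0.821 and 0.918 in cohort 2. For Actb in HIP it averaged 0.596 and 0.718 in cohort 1, and 0.731 and 0.816 in cohort 2. With the Gapdh ratio as a covariate Dgkg was 0.44 in P/FC, adjusted p = 0.000162, and Htr1a 0.20 in HIP, adjusted p = 0.0496, and no other gene of the 45 passed in either region. With the Actb ratio 0 genes passed in HIP, and in P/FC 3 were higher and Bhlhe22 was lower. How many of all probesets passed with these covariates is not given here. Whether the loss is particular to these genes was not tested.

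The line difference had the same sign in both cohorts for 28 of 45 genes in HIP and 21 of 36 in P/FC. A same-sign share over all probesets was not computed, so these counts are not read as agreement between the cohorts. An unadjusted p under 0.05 in each cohort with the same sign was met in HIP by Bhlhe22 and Htr1a, 2 of 45 genes beside 4.85% of all probesets, and in P/FC by Bhlhe22, Dgkg and Htr1a, 3 of 36 beside 9.87%. Nts in P/FC differed by 1.41 in cohort 1 and -0.08 in cohort 2, and Rerg, a Ras-like GTPase, by 0.58 and -0.40. The difference between the cohorts passed for 0 of the genes and 0% of all probesets in limma, and its unadjusted p for Rerg in P/FC was 0.00135, for Nts 0.0238, for Dgkg 0.0257 and for Lpl 0.0316. The residuals of Nts and Rerg had r = 0.87 and 0.70 with the striatal score in P/FC.

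Nrip3, named as a nuclear receptor interacting protein, gave different answers from its 3 probesets. The brightest, which the rule took, ran in HIP from 1129 to 2206 with a median of 1423 in FRL and from 991.1 to 1972 with a median of 1529 in FSL arrays, a difference of -0.05 ± 0.05, adjusted p = 0.558. The dimmest Nrip3 probeset ran from 79.2 to 464.2 with a median of 264.7 in FRL and from 20.6 to 70.3 with a median of 42.0 in FSL arrays. The line ranges of that probeset did not overlap, and the difference was -2.62 ± 0.17, adjusted p = 3.59e-14, and -2.65 without the array that stood apart. In P/FC, where it did not pass the filter, it ran from 22.9 to 161.1 in FRL and from 10.5 to 30.1 in FSL arrays.

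The remaining Nrip3 probeset differed by -0.72 ± 0.10 in HIP, adjusted p = 3.70e-06 (-0.77 without the array that stood apart), and by -0.37 ± 0.12 in P/FC, adjusted p = 0.0305, where the brightest had 0.10, adjusted p = 0.261 (limma). Of the 23 further probesets of the 45 genes tested in HIP these 2 were the only ones past the threshold. Which part of the transcript each probeset reads was not examined here, and a base difference between the lines under a probe was not tested.

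**Figure D5:**
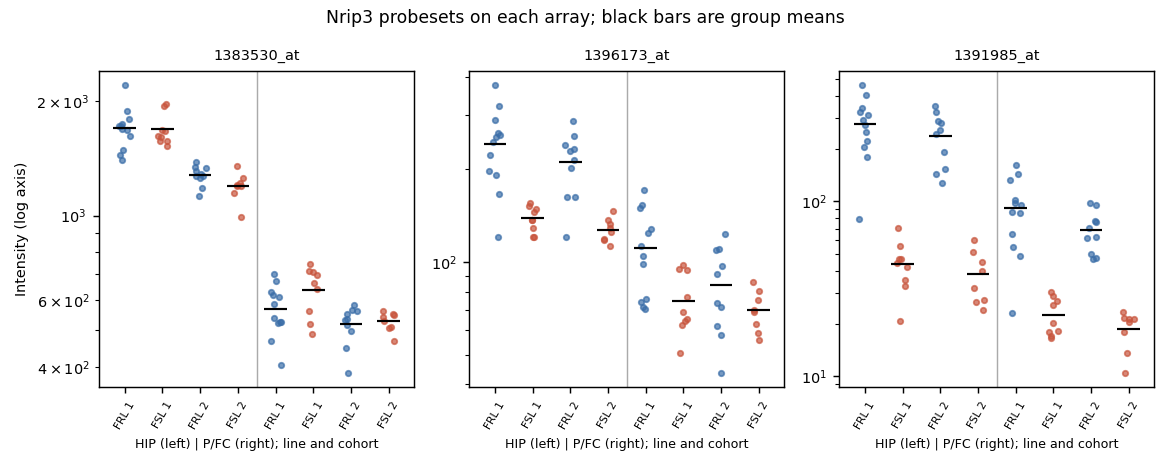
Intensity of each array on a log axis for the 3 Nrip3 probesets, by line and cohort, HIP at left and P/FC at right of the grey line. Black bars are group means. The brightest probeset has similar means in both lines, whereas FSL arrays of the dimmest probeset (right panel) in HIP, at 20.6 to 70.3, all lie below the lowest FRL array at 79.2.

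Within the groups, Prox1 was followed from array to array in HIP by Fat4, with r = 0.81 and rho = 0.73 over 39 arrays. Kctd4, a BTB domain protein, had r = 0.68, Dock10 0.63, Tle1, a Groucho corepressor, 0.60 and Bhlhe22 0.59. With the 2 arrays farthest in Prox1 left out these were 0.75, 0.62, 0.56, 0.59 and 0.61, and without the array that stood apart 0.80, 0.73, 0.67, 0.60 and 0.60. Over 21629 probesets the median r with Prox1 was -0.03 and 1.14% were above 0.5, and over the other 44 genes the median was 0.26 and 5 were above 0.5. The arrays share dissection, RNA quality and normalisation, so these values are a description.

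At the other end, Gpr161 had the lowest r with Prox1, -0.38, and -0.27 without the 2 arrays farthest in Prox1. Htr5b had -0.31, which was -0.07 without them, and Fibcd1 and Nts had -0.12 and -0.08. Ctxnd1 with -0.33, Rem2 with -0.18 and Cpne7 with -0.17 also lay below Fibcd1, and none of them is in a subfield list. Without the array that stood apart Gpr161, Htr5b, Fibcd1 and Nts had -0.54, -0.35, -0.28 and -0.10. Gpr161 followed Htr5b with r = 0.72 and rho = 0.61 over the 39 arrays, and 0.58 without the 2 arrays farthest in Gpr161 or 0.73 without the array that stood apart. Nts had r = 0.54 with Htr5b and 0.49 with Gpr161. Fibcd1 had 0.47 with Gpr161, which was 0.21 without 2 arrays and 0.31 without the array that stood apart. Ctxnd1 had 0.53 with Gpr161, which was 0.25 and 0.48 with the same arrays left out. The CA3 genes Rnf182, Cpne4 and Grik4 had r = 0.47, 0.44 and 0.13 with Prox1.

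The start regions of these genes in RefSeq were read to show the sequence behind the genes nearest to Prox1, with 33 of the 45 genes matched in the table of build GRCr8. Each stretch holds 250 bases before and 50 after a start site, 5′ to 3′, and capitals mark the motif CANNTG, the E-box letters that helix-loop-helix factors such as Bhlhe22 and Nhlh1 bind, which read alike on both strands.
Fat4 promoter, chr2:123855039-123855338, plus strand: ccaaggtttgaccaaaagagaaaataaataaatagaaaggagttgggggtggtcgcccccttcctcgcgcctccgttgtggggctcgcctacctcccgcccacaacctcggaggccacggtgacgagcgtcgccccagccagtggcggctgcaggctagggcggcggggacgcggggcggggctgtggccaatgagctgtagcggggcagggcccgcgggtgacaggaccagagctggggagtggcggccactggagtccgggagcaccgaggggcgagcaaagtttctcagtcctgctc
Kctd4 promoter, chr15:57683362-57683661, plus strand: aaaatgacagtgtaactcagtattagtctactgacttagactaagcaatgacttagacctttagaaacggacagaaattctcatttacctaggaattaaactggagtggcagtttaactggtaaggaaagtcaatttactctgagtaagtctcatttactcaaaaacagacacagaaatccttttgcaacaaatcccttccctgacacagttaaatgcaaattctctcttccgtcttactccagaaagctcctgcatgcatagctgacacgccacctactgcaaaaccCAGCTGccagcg
Dock10 promoter, chr9:89454449-89454748, minus strand: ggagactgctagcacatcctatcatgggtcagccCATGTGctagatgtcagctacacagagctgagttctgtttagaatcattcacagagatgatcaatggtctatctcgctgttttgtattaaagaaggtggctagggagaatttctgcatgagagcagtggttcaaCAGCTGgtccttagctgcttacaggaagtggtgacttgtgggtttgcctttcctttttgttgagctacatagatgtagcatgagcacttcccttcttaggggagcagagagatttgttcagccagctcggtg
The Fat4 stretch holds 0 such motifs and 66.7% G or C, that of Kctd4 1 motif and 40.7%, and that of Dock10 2 motifs and 46.7%. The motif was in 64.1% of 39 start regions of the matched genes and in 72.1% of all 33469. A narrower form, CAGATG, was in 10.3% and 16.6%, and CATATG, another, in 5.13% and 4.11%, and both also count as CANNTG. The cyclic AMP response element TGACGTCA was in 0 of the 39 and 1.83% of all. A match in such a window is a description of its letters.

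Of the genes in the subfield lists, 3 were higher and 1 lower in FSL rats in HIP. In HIP 0 of 20 dentate genes tested, 1 of 14 CA3 genes and 2 of 13 CA1 genes were higher, with list medians of 0.02, 0.06 and 0.04 beside 0.00 over all probesets, of which 7.33% passed. The CA3 gene was the serine protease Prss23 with 0.56, adjusted p = 0.000381, and the CA1 genes were the matricellular protein Ccn3 with 0.61 and the proteoglycan Dcn with 0.62. Of 6 subiculum genes fibronectin, Fn1, was lower with -0.64, adjusted p = 4.96e-09, and 0 of 12 CA2, 0 of 11 mossy cell and 0 of 3 Cajal-Retzius genes passed.

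In P/FC, where 18.6% of all probesets passed, 2 of 20 dentate genes were higher, the semaphorin Sema5a with 0.33 and the exchange factor Rasgrp1 with 0.34. Of 7 subiculum genes Slc17a6, a vesicular glutamate transporter, was higher with 0.36 and the adhesion molecule Cntn6 with 0.28, and Fn1 was lower with -0.84, adjusted p = 2.24e-10 (limma). Of 10 CA1 genes Ccn3 was higher with 0.56 and Mpped1 lower with -0.24, and of 11 mossy cell genes Tm4sf1 was lower with -0.27. The CA3, CA2 and Cajal-Retzius lists had 0 of 14, 0 of 10 and 0 of 3. None of the subfield genes that passed was among the 45.

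Among the lists by function, 4 of 22 transcription factors of hippocampal development were lower in FSL rats in P/FC and 0 higher. Of all probesets there 18.6% passed in either direction and 8.86% were lower. The 4 were Emx2 with -0.25, Lhx2 with -0.25, Lef1 with -0.22 and Klf9 with -0.14, and Klf9 was lower in HIP with -0.11. In P/FC 10 of 54 cadherin and axon guidance genes were higher and 1 lower. Of 34 glutamate and GABA receptor subunits 6 were higher and 4 lower, and of 45 potassium channels 4 and 1. Of 35 Wnt and BMP genes 1 was higher and 4 lower, and of 12 adult neurogenesis genes 1 was higher. Both members of the transcription factor list among the 45 genes, Prox1 and Nr2f2, had -0.07 and -0.17 in P/FC, adjusted p = 0.291 and 0.154 (limma). The 3 potassium channel genes among the 45 did not pass in either region. Markers of other cells moved with the line too, but not in every list. Of 10 astrocyte markers 6 were lower in FSL rats in HIP, beside 4.13% of all probesets, and 8 in P/FC, beside 8.86%. Of 11 endothelial and mural markers 1 was lower in HIP and 6 in P/FC, and of 11 oligodendrocyte lineage markers 0 and 2. Of 10 microglia markers 1 was lower and 1 higher in HIP, and 3 were lower in P/FC. Of 10 inhibitory interneuron markers 1 was higher in HIP and 3 in P/FC, and 0 were lower. Among immediate early genes, a function list, 3 of 12 were lower in HIP and 7 of 13 in P/FC. Of the striatal markers 3 of 15 were higher in P/FC, and 0 of 15 choroid plexus markers passed in HIP. Their part in the results above was not tested beyond the covariates given.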

How the data were processed

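Total RNA of 78 samples was hybridised to the Affymetrix Rat Genome 230 2.0 array. Rosetta Resolver 5.1 was used by the authors for normalisation, and the deposited values are linear, background-subtracted intensity values, 1 for each probeset on each array. Precision is limited by how many arrays there are. Labels gave each array's line, region and cohort. The labelling batch of the study's own model was not in the labels and was not fitted, and nothing in the labels links the arrays of 1 animal, so p-values measure the spread between arrays. Values under 1 were set to 1, log2 was taken, and the 57 control probesets were left out.

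After the study's methods, a probeset was tested in a region where 50% or more of the FRL arrays and of the FSL arrays there exceeded 30. limma 3.58.1 in R 4.3.3 was fitted with a mean per line and cohort, and FSL minus FRL was averaged over the cohorts with equal weight. The line by region difference was fitted over all 78 arrays, which were treated as independent. Because the study took both regions from the same animals, its p-values leave that pairing out. Benjamini-Hochberg adjustment ran over all kept probesets, with a threshold of 0.05. The procedure was tested on simulated data. Correlations were computed with Python 3.11.15 and numpy 2.4.6 on residuals from the group means, and figures were drawn with matplotlib 3.10.9.

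Genes were named through the platform annotation, and 44 of 45 matched RefSeq by gene ID. Named are Prox1, the 10 largest region differences, the 3 nearest on either side of the threshold, members of the subfield lists, the largest rises and falls among genes that passed, the 5 smallest p of the line by region difference (Bhlhe22, Dgkg, Mas1, Nrip3 and Ucp2), the 5 nearest to Prox1 and up to 4 genes of each other list. Nts, Rerg, the further Nrip3 probesets and the named genes outside the 45 were chosen after their values were seen. The 45 genes and the 25 gene lists were chosen with earlier results of these data known.

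Alternatives were no filter, a filter of 100, quantile normalisation, 16 added before log2, a plain analysis of variance, an additive cohort term, the replicate number as a block, averaging a gene's probesets, the Gapdh and Actb 3' to 5' ratios and tissue marker scores as covariates, and other forms of the rule. Leaving out choroid-rich or striatum-rich arrays, or the HIP array that stood apart, was added after seeing the data.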

Additional observations from a re-analysis of the deposited data

Results flagged for a closer look

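The gap between the highest or lowest array and its neighbour, as a share of the range of the group on the log2 scale, was above Dixon's critical value in 36 of 270 groups of 8 to 10 arrays, where chance flags about 1 in 20. In FRL HIP cohort 2 the lowest array stood off by 0.536 for B3galt5, 0.622 for Dock10, 0.618 for Fibcd1, 0.535 for Gpr161, 0.631 for Icam5, 0.479 for Kcng2, 0.545 for Kcnip2, 0.579 for Kctd4, 0.527 for Ksr1, 0.563 for Nkain3, 0.549 for Nr2f2, 0.508 for Nrp1, 0.48 for Smpd2, 0.556 for Trpc4 and 0.695 for Wnt4. In FRL P/FC cohort 2 the lowest array stood off by 0.656 for Gpr161, 0.543 for Kcnab2 and 0.493 for Lpl. In FSL HIP cohort 1 the highest array stood off by 0.623 for Cpne4, 0.501 for Fat4 and 0.519 for Prox1. In FSL HIP cohort 1 the lowest array stood off by 0.576 for Gpr161, 0.516 for Htr1a, 0.634 for Kcnab2 and 0.548 for Ntng1. In FSL HIP cohort 2 the highest array stood off by 0.534 for Wipf3. In FSL HIP cohort 2 the lowest array stood off by 0.801 for Cpne7, 0.705 for Dgkg, 0.655 for Kit, 0.699 for Nr2f2, 0.667 for Ntng1 and 0.638 for Rnf182. In FSL P/FC cohort 1 the highest array stood off by 0.692 for Prox1. In FSL P/FC cohort 1 the lowest array stood off by 0.593 for Kit and 0.563 for Mas1. In FSL P/FC cohort 2 the lowest array stood off by 0.761 for Cotl1. All 15 of the lowest values in FRL HIP cohort 2 came from replicate 2, the array that stood apart.

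The line difference of Bhlhe22 differed between HIP and P/FC by 0.37 on the log2 scale in the test of that difference, adjusted p = 0.0050 (limma).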

How the results depend on the processing

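Among the 45 genes, 3 were higher and 0 lower in HIP, and 5 were higher and 1 lower in P/FC. The count higher in HIP was 1 with the Gapdh ratio, 0 with the Actb ratio and 0 without the choroid-rich arrays, and the count lower was 1 without those arrays (Fat4, -0.25, adjusted p = 0.000662) and 1 when a gene's probesets were averaged (Nrip3, -1.13), where 2 were higher. In P/FC the count higher was 1 with a filter of 100, which tested fewer genes, 1 with the Gapdh ratio, 3 with the Actb ratio, 3 with tissue scores and 2 without the striatum-rich arrays. The count lower in P/FC was 2 with averaged probesets, where Nrip3 turned from 0.10 to -0.72, and 0 with the Gapdh ratio or without the striatum-rich arrays. No filter, quantile normalisation, 16 added, a plain analysis of variance and the additive cohort term kept all these counts, and leaving out the HIP array that stood apart kept those of HIP and of the line by region difference. The line by region count of 1 became 0 without the choroid-rich and striatum-rich arrays. The cause of these changes was not tested, except that leaving out arrays leaves fewer samples. Counts over all probesets under these settings are not given beside them, so a change particular to the 45 genes cannot be read from them. The rule gave 82 genes at a threshold of 1, 21 at 1.6 and 29 with 16 added before log2, where it gave 45.

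Of 1206 values of single genes compared with an alternative, 24 lost the threshold, 2 gained it and 1 reversed, and 88 that passed under neither setting changed sign, in 32 genes. Dgkg in P/FC passed under all 12 alternatives, with 0.19 to 0.44.

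Equal replicate numbers were not shown to pair the samples. The correlation of same-numbered deviations between the lines ran from -0.16 to 0.43. There 0 to 3 of the 8 or 9 pairs in each set correlated best with their own number. Between HIP and P/FC within a line and cohort the correlation ran from -0.28 to 0.37. There 1 to 3 of the 8 to 12 pairs in each set correlated best with their own number. With the replicate number as a block 3 genes were higher and 0 lower in HIP, and 4 higher and 1 lower in P/FC, where Lpl had adjusted p = 0.077, and the line by region count was 1.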
